A study of Mus musculus with 4 samples.

Results

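Counts of 6 gene identifiers were followed through the testis libraries of busulfan-treated mice with and without ursolic acid (ULA): ENSMUSG00000119584, ENSMUSG00002076173, Lars2, Gm15564, mt-Rnr1 and mt-Rnr2. They are 6 of the 57010 identifiers counted. The members were chosen by name after their counts in these same libraries had been seen, so the measured values that chose them are the contrast itself, and their levels in the groups are given as a description with no test. The comparison had 2 groups of 2 libraries. The BUS+ULA group came from mice given 1 injection of busulfan at 30 mg/kg and, from 2 weeks later, ULA at 50 mg/kg daily for 4 weeks. The BUS group had the same busulfan dose and no ULA, so that busulfan was common to every library. The mice were male ICR animals, 8 weeks old, and busulfan, an alkylating chemotherapy drug that depletes germ cells, served as a model of oligospermia. ULA is a plant triterpenoid. Whole testis was sequenced from Trizol-extracted total RNA with a kit sold for mRNA, and no label ties a library to an animal. The study's methods speak of biological replicates and of a technical replicate without saying which library is which, and the BUS+ULA columns of the count table carry a letter A that no source explains and the BUS columns lack. Every p-value below therefore measures only the spread between these libraries. The totals were 16312898 and 15078828 counts in BUS+ULA libraries, against 18147335 and 18216380 counts in BUS libraries.

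Most RNA of a cell is ribosomal. The nuclear rRNAs are made by RNA polymerase I and the mitochondrial ones are encoded on the mitochondrial chromosome, and none of the mature nuclear rRNAs carries the long poly(A) tail by which mRNA is usually captured. Mitochondrial rRNAs are cut out of the same long heavy-strand transcript as most mitochondrial mRNAs, and short A tails are added to many of these RNAs. Lars2 encodes the leucyl-tRNA synthetase that charges tRNA with leucine for the mitochondrial ribosome.

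The name ribosomal RNA holds by annotation for only 2 of the 6 identifiers. In GENCODE M21 (GRCm38), mt-Rnr1 (chrM, bases 70 to 1024, plus strand) and mt-Rnr2 (chrM, bases 1094 to 2675, plus strand) have the class Mt_rRNA and encode the small-subunit and large-subunit rRNA of the mitochondrial ribosome. Lars2 (chromosome 9, bases 123366927 to 123462666, plus strand) is protein coding. Gm15564 (chromosome 16, bases 35966752 to 35983230, minus strand) has the class antisense, and it overlaps the genes Parp9 and Kpna1 on the other strand. ENSMUSG00000119584 and ENSMUSG00002076173 have no entry in the annotation used, like 4929 identifiers in all, so neither a name, a position nor a sequence is given for them here.

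A sequence links Lars2 and Gm15564. Bases 3278 to 3349 of transcript Lars2-201 and bases 179 to 250 of transcript Gm15564-202 share 72 bases with 71 identical, in the same orientation. In Lars2 the stretch lies in the last exon, exon 21 of 21, at bases 123462048 to 123462119 of chromosome 9, wholly within the 3′ UTR. In Gm15564 it crosses an exon junction, with 1 base at 35983052 in exon 1 and 71 bases at 35981725 to 35981795 in exon 2 of 4, on the minus strand of chromosome 16. The 30 bases around the only mismatch are shown because they hold the only base within the stretch that differs between the 2 genes. The capital marks the mismatch, and the sequences are those of GENCODE M21.
Lars2-201, bases 3315 to 3344: ggaacgtgagctgggAttagaccgtcgtga
Gm15564-202, bases 216 to 245: ggaacgtgagctgggTttagaccgtcgtga

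Within the stretch both copies are identical on either side of that base. A read that lies wholly within the stretch and misses that base therefore matches both genes equally. The mismatch is base 53 of the 72, so only a read shorter than 53 bases can do so. No source used here says how such reads were assigned, and the counts of Lars2 and Gm15564 are uncertain to the extent that such reads occurred. Only transcripts of GENCODE M21 were searched. Whether the stretch also matches RNAs outside that annotation, such as the unnamed identifiers, was therefore not tested. At an e-value of 1e-10, Lars2-201 (3894 bases) matched transcripts of only 2 other genes, Gm15564 and AA474408. AA474408 matched at 80.1% identity over 196 aligned bases with 34 gap bases. Other transcripts of the same genes were less distinct, with Lars2-203 matching 772 other genes, Lars2-204 matching 1112 and Lars2-207 matching 38, and with Gm15564-201 and Gm15564-203 matching 493 each. Counts are per gene, so which transcript the reads came from is not known.

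For the mitochondrial rRNAs, the surroundings of the longest run of A are shown, since oligo(dT) capture depends on A. Capitals mark the run, and both windows come from the plus strand of chrM.
mt-Rnr1-201, bases 610 to 669: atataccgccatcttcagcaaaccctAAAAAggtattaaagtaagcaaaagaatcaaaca
mt-Rnr2-201, bases 369 to 428: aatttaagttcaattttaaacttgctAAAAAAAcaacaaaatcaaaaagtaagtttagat

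The longest run was 5 bases in mt-Rnr1 and 7 bases in mt-Rnr2. The 2 rRNAs were alike in composition, with 37.8% A and 35.8% G or C in mt-Rnr1 (955 bases) and 38.2% A and 35.4% G or C in mt-Rnr2 (1582 bases). What primed the reads of either rRNA was not tested.

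ENSMUSG00000119584 was the most counted identifier in both BUS+ULA libraries. It had 1285914 and 2794847 counts in BUS+ULA libraries, against 758 and 116 counts in BUS libraries. As a share of all counts this was 7.88% (95% Clopper-Pearson interval 7.87% to 7.90%) and 18.5% (18.5% to 18.6%) in BUS+ULA libraries, against 0.00418% (0.00388% to 0.00449%) and 0.000637% (0.000526% to 0.000764%) in BUS libraries. The 2 groups did not overlap, which by share of all counts held for 26.5% of the genes tested in this direction and for 44% in the other, so nothing is read from the lack of overlap here or below. The identifier stood at ranks 1 and 1 of all identifiers in BUS+ULA libraries, against ranks 6274 and 13073 in BUS libraries. The intervals here and below cover counting error only, and the libraries of each group differed from each other by far more than that.

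ENSMUSG00002076173 had the same order of libraries at a lower level. It had 15586 and 33416 counts in BUS+ULA libraries, against 2 and 0 counts in BUS libraries. Its shares were 0.0955% and 0.222% in BUS+ULA libraries, against 1.1e-05% in BUS library 1. For the 0 counts in BUS library 2 the 95% Clopper-Pearson interval reached 2.03e-05%, and the floor of 3 counts stands at 1.6e-05%. Its ranks were 51 and 11 in BUS+ULA libraries.

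Lars2, a gene of modest level in BUS testis, was among the most counted identifiers after ULA. It had 116405 and 197957 counts in BUS+ULA libraries, against 472 and 345 counts in BUS libraries. This was 0.714% and 1.31% of all counts in BUS+ULA libraries, against 0.00260% and 0.00189% in BUS libraries. Lars2 stood at ranks 3 and 2 in BUS+ULA libraries and at ranks 8338 and 9295 in BUS libraries, again without overlap.

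Gm15564 had 886 and 1470 counts in BUS+ULA libraries, against 7 and 19 counts in BUS libraries. Its shares were 0.00543% and 0.00975% in BUS+ULA libraries, against 3.9e-05% and 0.000104% in BUS libraries, so this antisense RNA also did not overlap between the groups. Since no source used here says whether strand was used in counting, reads of Gm15564 and of the genes it overlaps may not be told apart. Kpna1, a nuclear import receptor that it overlaps, had 923 and 621 counts in BUS+ULA libraries, against 967 and 911 counts in BUS libraries.

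The mitochondrial rRNAs differed less between the groups than the other 4 members did. The small-subunit rRNA mt-Rnr1 had 1831 and 1992 counts in BUS+ULA libraries (0.0112% and 0.0132% of all counts), against 1331 and 1286 counts in BUS libraries (0.00733% and 0.00706%). The large-subunit rRNA mt-Rnr2 had 11105 and 17175 counts in BUS+ULA libraries (0.0681% and 0.114%), against 2201 and 1896 counts in BUS libraries (0.0121% and 0.0104%). Neither overlapped between the groups.

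**Figure D1:**
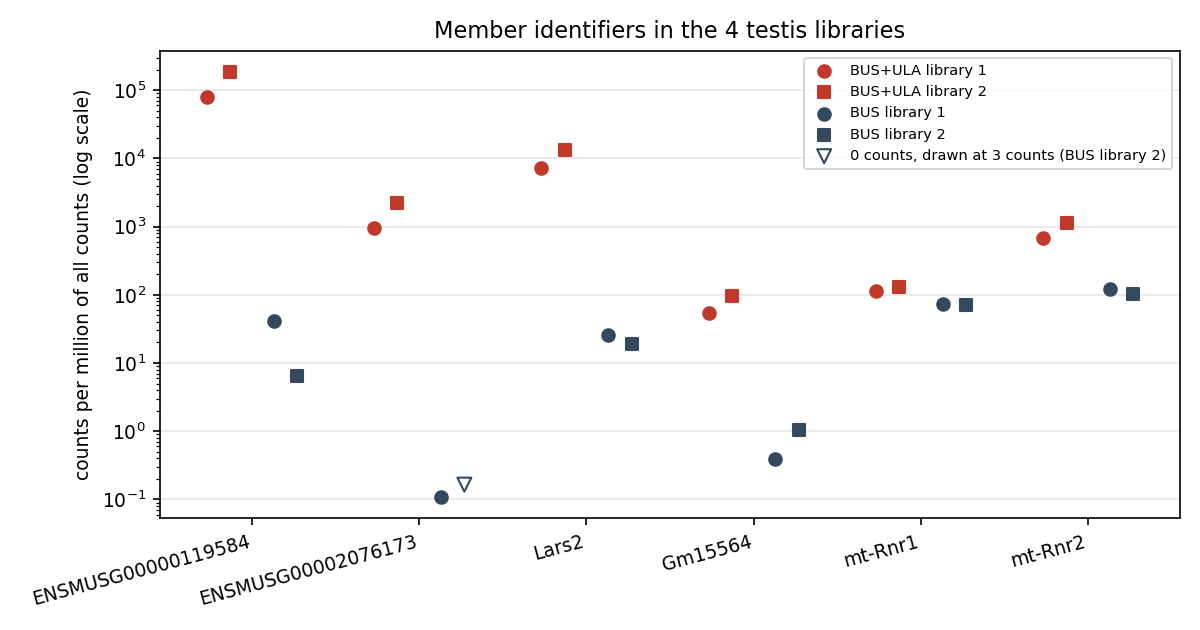
CPM, the counts scaled to the same total of all counts in each library (log scale, vertical axis), of the 6 identifiers (horizontal axis) in each of the 2 BUS+ULA libraries (red) and 2 BUS libraries (dark blue), with the single 0 drawn as an open triangle at 3 counts. Every BUS+ULA library lies above both BUS libraries for every identifier, and the gap is smallest for mt-Rnr1, with 112 and 132 CPM in BUS+ULA libraries against 73.3 and 70.6 in BUS libraries.

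As seen in the plot of CPM, the separation ran over several orders of magnitude. Pooling the 2 libraries of each group, the share in BUS+ULA over that in BUS was 5409 for ENSMUSG00000119584 (95% counting interval 5062 to 5786), 446 for Lars2 (416 to 478), 105 for Gm15564 (71.5 to 161), 7.996 for mt-Rnr2 (7.74 to 8.26) and 1.69 for mt-Rnr1 (1.61 to 1.78). For ENSMUSG00002076173, which rests on 2 counts in BUS, it was 28382 with an interval of 7856 to 234363. Comparing only the lowest BUS+ULA library with the highest BUS library, the ratio was 1887 for ENSMUSG00000119584, 274 for Lars2, 52.1 for Gm15564, 5.61 for mt-Rnr2 and 1.53 for mt-Rnr1. The spread within groups was wide for the largest members. ENSMUSG00000119584 averaged 132089 ± 75322 CPM of all counts in BUS+ULA libraries and 24.1 ± 25.03 in BUS libraries, and Lars2 averaged 10132 ± 4237 in BUS+ULA libraries and 22.5 ± 5.00 in BUS libraries (SD, n = 2 each).

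On the scale of the model fitted to all genes (edgeR, TMM scaling), the log2 fold changes of BUS+ULA over BUS were 12.68 for ENSMUSG00000119584, 14.91 for ENSMUSG00002076173, 9.09 for Lars2, 6.998 for Gm15564, 3.28 for mt-Rnr2 and 1.01 for mt-Rnr1. All 6 passed the filter on low counts. ENSMUSG00002076173, and Gm15564 with 7 and 19 counts in BUS libraries, passed only because of the BUS+ULA libraries. Ranked from the highest log2 fold change among the 23023 genes tested, they stood at places 3, 1, 6, 87, 518 and 3321. Over all genes tested the median log2 fold change was 0.02, 11.8% were called higher in BUS+ULA and 15.3% were called lower at an adjusted p of 0.05. Nothing is read from these percentages for the members, because the contrast chose them. The value of ENSMUSG00002076173 depends on the prior count that the model adds and is no bound.

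Together the 6 identifiers took 8.78% and 20.2% of all counts in BUS+ULA libraries, against 0.0263% and 0.0201% in BUS libraries. ENSMUSG00000119584 made up 89.8% and 91.7% of the members' counts in BUS+ULA libraries, against 15.9% and 3.17% in BUS libraries, where mt-Rnr2 was the most counted member. Protein-coding genes held 87.4% and 76.9% of all counts in BUS+ULA libraries, against 96.9% and 96.3% in BUS libraries. With the 6 members, Lars2 among them, taken out of both sides, the share was 95.002% and 94.8% in BUS+ULA libraries, against 96.9% and 96.3% in BUS libraries. The depth left for all other genes was 14881171 and 12031971 counts in BUS+ULA libraries, against 18142564 and 18212718 counts in BUS libraries.

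**Figure D2:**
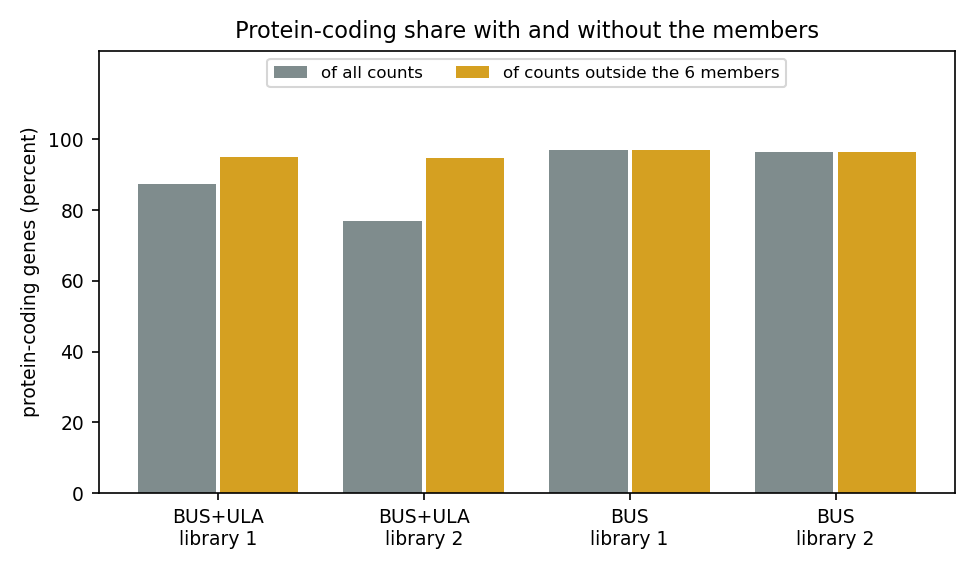
Share of counts on protein-coding genes (percent, vertical axis) in the 2 BUS+ULA and 2 BUS libraries, taken of all counts (grey) and with the 6 members removed from both numerator and denominator (yellow). The grey bars are lower in the BUS+ULA libraries, at 87.4% and 76.9%, and the yellow bars there, at 95.002% and 94.8%, are nearer to the 96.9% and 96.3% of the BUS libraries but still below both.

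The bars of the protein-coding share thus came closer together once the members were set aside, and the groups still did not overlap. Other short structural RNAs had low counts everywhere. The 13 identifiers with the class rRNA summed to 7 and 5 counts in BUS+ULA libraries, against 5 and 2 counts in BUS libraries. Mitochondrial tRNAs (22 identifiers) held 0.00119% and 0.000862% in BUS+ULA libraries, against 0.00186% and 0.00181% in BUS libraries. Small nucleolar RNAs, which guide the modification of rRNA, held 0.00429% and 0.00458% in BUS+ULA libraries, against 0.00280% and 0.00294% in BUS libraries. The mitochondrial tRNAs, which lie between the mitochondrial rRNAs and mRNAs on the same transcripts, therefore ran the other way from mt-Rnr1 and mt-Rnr2.

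Identifiers with no annotation held 8.27% and 19.1% of all counts in BUS+ULA libraries, against 0.227% and 0.247% in BUS libraries. Without the 2 unnamed members they held 0.292% and 0.304% in BUS+ULA libraries, against 0.222% and 0.247% in BUS libraries, so nearly all of that difference was ENSMUSG00000119584 and ENSMUSG00002076173. The unannotated ENSMUSG00002075524, which is not a member, had 5125 and 9702 counts in BUS+ULA libraries, against 1 and 0 counts in BUS libraries. Another, ENSMUSG00000118662, did not share the pattern, with 1984 and 1685 counts in BUS+ULA libraries, against 2160 and 2500 counts in BUS libraries.

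The libraries of 1 group also differed in a set order. The share in BUS+ULA library 2 over that in library 1 was 2.35 for ENSMUSG00000119584 (95% counting interval 2.35 to 2.36) and 2.32 for ENSMUSG00002076173 (2.28 to 2.36). It was 1.84 for Lars2 (1.83 to 1.85), 1.79 for Gm15564 (1.65 to 1.95), 1.67 for mt-Rnr2 (1.63 to 1.71) and 1.18 for mt-Rnr1 (1.10 to 1.25). Each of the 6 was thus higher in library 2, and apart from the places of the 2 unnamed identifiers the order of the 6 was that of their ratios between the groups. Among 11302 other genes with at least 100 counts in both BUS+ULA libraries, the median of the same ratio was 0.827, and the 5th and 95th percentiles were 0.558 and 1.14. Of these genes, 4 were at or above ENSMUSG00000119584, 14 at or above Lars2, 17 at or above Gm15564, 25 at or above mt-Rnr2 and 405 at or above mt-Rnr1. The members were chosen with these counts seen, so these numbers are a description and no test.

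In BUS every member but Gm15564 had a lower share in library 2, with ENSMUSG00002076173 on only 2 and 0 counts. The share in BUS library 2 over that in library 1 was 0.152 for ENSMUSG00000119584 (0.124 to 0.186), 0.728 for Lars2 (0.632 to 0.838), 0.858 for mt-Rnr2 (0.807 to 0.913) and 0.963 for mt-Rnr1 (0.891 to 1.04), while for Gm15564 it was 2.70 (1.09 to 7.61) on 19 and 7 counts. ENSMUSG00000119584 therefore differed more between the 2 BUS libraries than any other member with more than 2 counts there, and Gm15564 went the other way. Among 13020 other genes with at least 100 counts in both BUS libraries, the median ratio was 0.975. The 5th and 95th percentiles were 0.521 and 1.62, and Lars2, mt-Rnr2 and mt-Rnr1 lay between them.

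Ratios between members within a library do not depend on its depth. ENSMUSG00000119584 over ENSMUSG00002076173 was 82.5 (95% counting interval 81.2 to 83.8) and 83.6 (82.7 to 84.5) in BUS+ULA libraries, where the 2 intervals overlap although the shares differed by more than 2-fold. In BUS library 1 it was 379 on 2 counts of the second identifier, with an interval of 105 to 3135, and BUS library 2 gave no ratio. Lars2 over Gm15564 was 131 (123 to 141) and 135 (128 to 142) in BUS+ULA libraries, again with overlapping intervals, against 67.4 (32.5 to 169) and 18.2 (11.5 to 30.5) in BUS libraries. Within BUS+ULA, each of these 2 pairs therefore kept its ratio within counting error.

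Other pairs did not. ENSMUSG00000119584 over Lars2 was 11.05 and 14.1 in BUS+ULA libraries, against 1.61 and 0.336 in BUS libraries. The ratio of mt-Rnr2 to mt-Rnr1 was 6.06 (5.77 to 6.38) and 8.62 (8.23 to 9.04) in BUS+ULA libraries, against 1.65 (1.54 to 1.77) and 1.47 (1.37 to 1.58) in BUS libraries. The 2 mitochondrial rRNAs, which neighbour each other on 1 transcript, thus stood in unequal proportion to each other in the 2 groups, with the large-subunit rRNA the more abundant in all 4 libraries by counts.

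**Figure D3:**
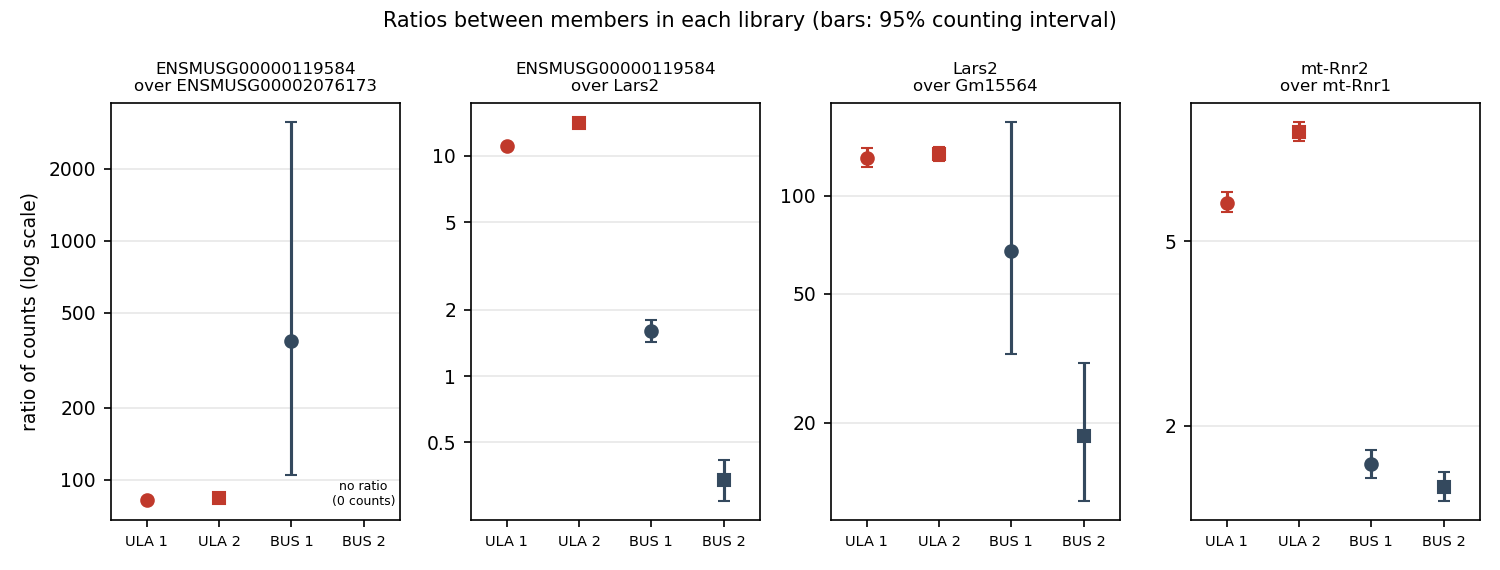
Ratios of counts between 4 pairs of members (log scale, vertical axes) in each library, with BUS+ULA libraries written ULA 1 and ULA 2 in red and BUS libraries in dark blue, and bars for the 95% counting interval. The BUS+ULA libraries coincide in the first panel, at 82.5 and 83.6, and in the third, at 131 and 135, while in the other panels they differ by more than counting error and both lie above both BUS libraries.

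The ratio panels show that Lars2 and Gm15564 moved in step between the BUS+ULA libraries, and so did the 2 unnamed identifiers. Profiles over all 4 libraries were compared by the Euclidean distance of centred log2(CPM + 0.5), over 19941 other identifiers with a mean of at least 1 CPM. The same 5 identifiers were nearest to ENSMUSG00000119584 and to Lars2. The nearest was ENSMUSG00002075524, at a distance of 3.64 from ENSMUSG00000119584 and 0.94 from Lars2. The next was ENSMUSG00002075551, with 185 and 306 counts in BUS+ULA libraries, against 1 and 0 counts in BUS libraries, at distances of 8.21 and 3.96. Kcnk10, a potassium channel gene, followed with 677 and 722 counts in BUS+ULA libraries, against 16 and 33 counts in BUS libraries. Gm10505 had 2614 and 2341 counts in BUS+ULA libraries, against 121 and 170 counts in BUS libraries, and ENSMUSG00000121530 had 166 and 299 counts in BUS+ULA libraries, against 6 and 9 counts in BUS libraries. With 4 libraries in 2 groups, such likeness is mostly the difference between the groups. ENSMUSG00002075524, ENSMUSG00002075551 and the member ENSMUSG00002076173 had almost no counts in BUS libraries. Their BUS values are therefore close to the added 0.5, and their distances depend on that floor. The first 2 of these and ENSMUSG00000121530 reached the mean of 1 CPM only through the BUS+ULA libraries. Among the members, ENSMUSG00000119584 lay nearer to ENSMUSG00002076173 (2.30) than to Lars2 (4.34), and it lay farthest from mt-Rnr1 (12.19).

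Genes outside the members that matched Lars2-201 or mt-Rnr2-201 in sequence had smaller differences between the groups. AA474408 had 32 and 30 counts in BUS+ULA libraries, against 38 and 37 counts in BUS libraries, with a log2 fold change of 0.17 that did not pass edgeR's quasi-likelihood test (adjusted p = 0.76). Cep295, which encodes a centriole protein and of which 1 transcript matched mt-Rnr2-201 at 77.9% identity over 662 aligned bases on the opposite strand, had 1596 and 1586 counts in BUS+ULA libraries, against 836 and 1170 counts in BUS libraries. Its log2 fold change was 1.13 (adjusted p = 0.015, edgeR), against 3.28 for mt-Rnr2. Gm20594 matched mt-Rnr2-201 at 88.5% identity over 435 aligned bases and had 0 counts in all 4 libraries. No other gene matched mt-Rnr1-201.

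Per length, the mitochondrial rRNAs were compared with the 13 mRNAs of the same chromosome, which encode subunits of the respiratory chain and ATP synthase. The large-subunit rRNA mt-Rnr2 had 430 and 720 CPM per kb of transcript in BUS+ULA libraries, against 76.7 and 65.8 in BUS libraries. The small-subunit rRNA mt-Rnr1 had 118 and 138 in BUS+ULA libraries, against 76.8 and 73.9 in BUS libraries, so per length the 2 rRNAs were about equal in BUS libraries and apart in BUS+ULA libraries. The most abundant mRNA, mt-Co1 (cytochrome c oxidase subunit 1), had 3110 and 2019 in BUS+ULA libraries, against 5546 and 4001 in BUS libraries.

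**Figure D4:**
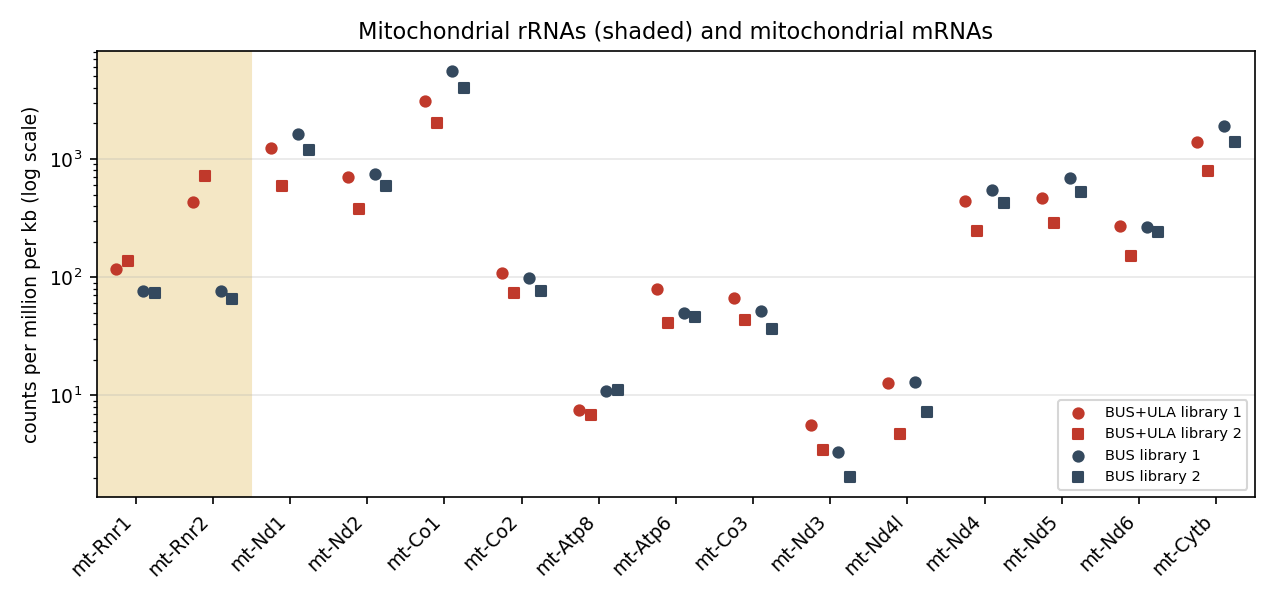
CPM of all counts per kb of transcript (log scale, vertical axis) of the 2 mitochondrial rRNAs (shaded) and the 13 mitochondrial mRNAs (horizontal axis) in the 2 BUS+ULA libraries (red) and 2 BUS libraries (dark blue). Both rRNAs are higher in BUS+ULA library 2 than in library 1, whereas all 13 mRNAs are lower there, as for mt-Co1 at 2019 in library 2 and 3110 in library 1.

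The plot per kb shows rRNA and mRNA of the mitochondrial chromosome running in opposite order between the 2 BUS+ULA libraries. The CPM used there are of all counts, on which the median of other genes was also lower in library 2 (a ratio of 0.827, given above), and the ratio of the 13 mRNAs had a median of 0.566. On the TMM scale 12 of the 13 were lower in library 2, the exception being mt-Atp8, a subunit of ATP synthase, with 25 and 21 counts in BUS+ULA libraries. The summed counts of the 13 mRNAs were 164818 and 91060 in BUS+ULA libraries, against 278970 and 205831 counts in BUS libraries. The 2 rRNAs over the 13 mRNAs gave a ratio of counts of 0.0785 and 0.210 in BUS+ULA libraries, against 0.0127 and 0.0155 in BUS libraries. None of the 13 mRNAs passed edgeR's test in either direction (0 higher and 0 lower, against 11.8% and 15.3% of all genes tested). There were 0 at an unadjusted p under 0.05 and 0 of either by DESeq2, and their median log2 fold change was -0.13. The log2 fold change was -0.70 for mt-Co1 (adjusted p = 0.16) and -0.39 for mt-Cytb, which encodes cytochrome b (adjusted p = 0.36). Some mitochondrial mRNAs overlap each other, and their split of reads is uncertain.

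The aminoacyl-tRNA synthetases, the enzyme family of Lars2, did not share its pattern. The mitochondrial list also held Gatb, Gatc and Qrsl1, subunits of an amidotransferase that acts on charged tRNA. The cytosolic list also held Aimp1, Aimp2 and Eef1e1, partner proteins of the synthetases. Counts of synthetases here and below are those of the whole lists. Of the 19 other mitochondrial synthetases, 0 were called higher (1 at an unadjusted p under 0.05, and 0 by DESeq2) and 3 lower, against 11.8% and 15.3% of all genes tested, with a median log2 fold change of -0.44. The 3 lower ones were Vars2 (valine), with a log2 fold change of -1.09 ± 0.31 (SE, adjusted p = 0.034, edgeR), Sars2 (serine), with -1.05 (adjusted p = 0.041), and Iars2 (isoleucine), with -0.83 (adjusted p = 0.042). Vars2 averaged 8.91 ± 1.61 CPM in BUS+ULA libraries and 19.0 ± 4.89 CPM in BUS libraries on the TMM scale (SD, n = 2 each). Of the 23 genes of the cytosolic list, 0 were called higher (0 at an unadjusted p under 0.05, and 0 by DESeq2) and 4 lower. These were Nars (asparagine), Sars (serine), Hars (histidine) and Yars (tyrosine), with log2 fold changes of -1.04, -0.999, -0.93 and -0.76 and adjusted p-values of 0.020, 0.024, 0.034 and 0.0496 by edgeR. The list's median was -0.20. Among the 19 genes of the mitochondrial list the highest log2 fold change was 0.59, against 9.09 for Lars2, which as a chosen member carries no test.

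The machinery that makes and handles rRNA was counted from lists. Of 46 genes of RNA polymerase I and nuclear rRNA processing, 1 was called higher and 4 lower, against 11.8% and 15.3% of all genes, with a median log2 fold change of -0.29. The lower ones were Ubtf, the upstream binding factor of the rRNA gene promoter, with a log2 fold change of -1.45 (adjusted p = 0.023, edgeR), Nop56, a core protein of box C/D small nucleolar particles (-0.97, adjusted p = 0.033), Dkc1, the pseudouridine synthase of box H/ACA particles (-1.26, adjusted p = 0.034), and Cd3eap, a subunit of RNA polymerase I (-1.15, adjusted p = 0.048). Ubtf averaged 61.5 ± 25.5 CPM in BUS+ULA libraries and 168 ± 73.6 CPM in BUS libraries (SD, n = 2 each). Polr1d, a subunit shared by RNA polymerases I and III, was the 1 called higher, with 98.5 and 110 CPM in BUS+ULA libraries, against 41.7 and 72.3 CPM in BUS libraries (log2 fold change 0.87, adjusted p = 0.049).

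Of 25 genes that transcribe, modify or assemble mitochondrial rRNA, 2 were called higher and 2 lower, against 11.8% and 15.3% of all genes tested, with a median log2 fold change of -0.48. Tfam, which packages and helps transcribe the mitochondrial chromosome, averaged 72.4 ± 12.7 CPM in BUS+ULA libraries and 42.6 ± 0.767 CPM in BUS libraries (log2 fold change 0.77, adjusted p = 0.040, edgeR). Nsun4, a methyltransferase of the small-subunit rRNA, was higher as well, with 271 ± 81.6 CPM in BUS+ULA libraries and 148 ± 31.7 CPM in BUS libraries (0.87, adjusted p = 0.048). Mrm2, a methyltransferase of the large-subunit rRNA, averaged 1.82 ± 0.673 CPM in BUS+ULA libraries and 5.97 ± 0.856 CPM in BUS libraries (-1.69, adjusted p = 0.019). Polrmt, the mitochondrial RNA polymerase, had a log2 fold change of -0.73 (adjusted p = 0.047). Without BUS+ULA library 2, none of the genes named from these 4 lists passed, with adjusted p-values of 0.196 to 0.544 for those other than Polr1d. Without BUS+ULA library 1, Mrm2 (adjusted p = 0.019), Ubtf (0.0024) and Dkc1 (0.026) still passed and the others did not, and without BUS library 1 the calls of Yars (0.089), Vars2 (0.054), Nsun4 (0.065), Cd3eap (0.163) and Polr1d were lost. The scaling and the filter also ended calls. Upper-quartile scaling ended those of Sars, Hars, Yars, Vars2, Sars2, Iars2, Polrmt, Nop56, Dkc1 and Cd3eap (adjusted p of 0.0521 to 0.154), and library size alone those of Tfam (0.224), Nsun4 (0.145) and Polr1d. RLE scaling ended that of Yars (0.0515), DESeq2 that of Polrmt (0.0514), no filter that of Tfam (0.0620), and a filter of 10 counts in every library those of Yars, Sars2, Polrmt and Cd3eap (0.0509 to 0.0572).

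The genes beside Lars2 and Gm15564 on their chromosomes were also counted. Of the 20 nearest neighbours, 11 could be tested and none was called, against 11.8% and 15.3% of all genes tested called higher and lower. There were 0 higher and 0 lower by edgeR and by DESeq2, and 1 higher and 1 lower at an unadjusted p under 0.05. The median log2 fold change was -0.40. Limd1, a LIM domain gene that follows Lars2 on its plus strand, had 559 and 446 counts in BUS+ULA libraries, against 794 and 818 counts in BUS libraries (-0.25, adjusted p = 0.42, edgeR). Kpna1, described above, had a log2 fold change of 0.13 (adjusted p = 0.66). The log2 fold changes of the testable neighbours ran from -2.15 to 1.24, against 9.09 for Lars2 and 6.998 for Gm15564. With 11 genes, nothing is read from the lack of calls.

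The members were set beside the other most counted identifiers and the cell types of the testis. Dnah8, a heavy chain of the sperm flagellar dynein, had 117193 and 123858 counts in BUS+ULA libraries, against 27029 and 39782 counts in BUS libraries, and Insl3, a hormone of Leydig cells, had 2724 and 895 counts in BUS+ULA libraries, against 43859 and 26474 counts in BUS libraries. Markers of the tissue were present in every library. The 4 spermatid markers summed to 5267 and 6826 CPM of all counts in BUS+ULA libraries, against 1801 and 2710 in BUS libraries. The 4 Leydig cell markers summed to 757 and 413 in BUS+ULA libraries, against 7188 and 5246 in BUS libraries, and the 4 Sertoli cell markers to 94.6 and 59.95 in BUS+ULA libraries, against 272 and 155 in BUS libraries. The 3 spermatocyte markers overlapped between the groups, at 936 and 649 in BUS+ULA libraries and 563 and 790 in BUS libraries, and the 3 epididymis markers summed to less than 1 CPM in each library. The spermatid sum was higher and the Leydig and Sertoli sums were lower in both BUS+ULA libraries than in both BUS libraries, and their part in the members' difference was not tested. In whole testis, fewer cells of a type and less RNA per cell cannot be told apart.

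The share taken by the members bears on how every other gene is scaled. With the library total as the only scaling, 1877 genes were called higher and 5031 lower, and the median log2 fold change of all genes was -0.20. With the 6 members left out of the same totals, 2617 were called higher and 3559 lower, with a median of 0.02. With TMM scaling, which trims extreme genes, 2706 were called higher and 3512 lower with the members in, and 2688 higher and 3533 lower with the members left out. Of the calls, 27.2% were higher under the library total and 42.4% under the total without the members, against 43.5% and 43.2% under TMM.

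**Figure D5:**
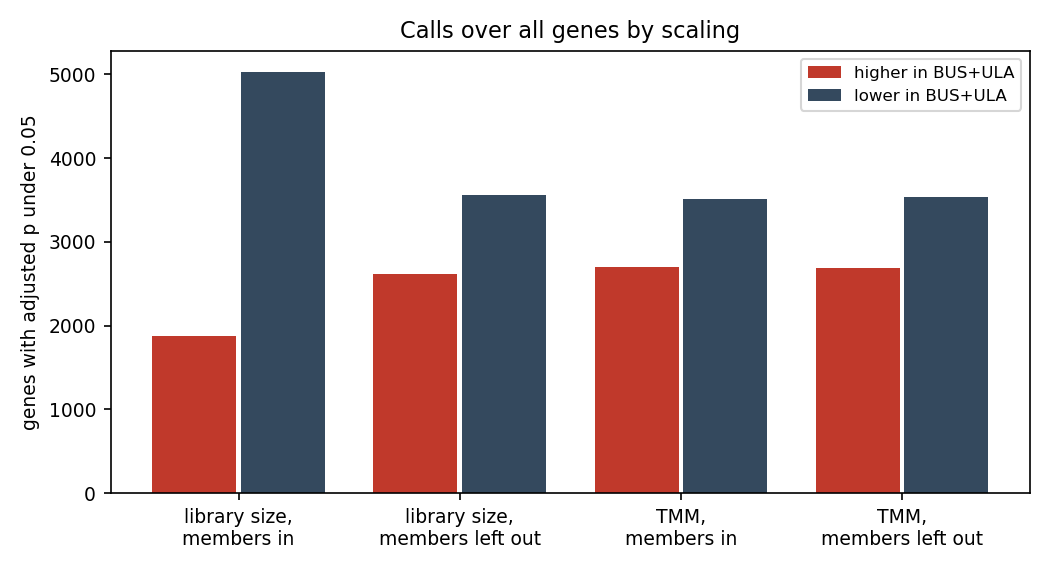
Number of genes with an adjusted p under 0.05 (vertical axis, edgeR) that were higher (red) or lower (dark blue) in BUS+ULA than in BUS, under library size and TMM scaling, each with the 6 members in and left out. Library size with the members in gives 1877 higher and 5031 lower, and the other 3 scalings give 2617 to 2706 higher and 3512 to 3559 lower.

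The plot of calls by scaling shows that leaving out 6 of 57010 identifiers changed the balance of higher and lower calls under library size and hardly under TMM. Upper-quartile scaling moved the median of all genes to 0.31 and gave 4282 genes higher and 2364 lower.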

How the data were processed

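Testis RNA was measured in 2 BUS+ULA and 2 BUS libraries, grouped by the labels. The deposited values were whole-number counts for each Ensembl identifier, which the authors had not normalized. The study's methods name Fastp, STAR, the build GRCm38 and FeatureCounts, and the submitters' processing notes name RSEM 1.3.1, so which tool made the counts is not settled. The annotation release, the strand setting and the rule for reads with several matches are not given in the sources used here. Each of them could change the counts of Lars2, Gm15564 and the mitochondrial rRNAs.

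Of 57010 identifiers, 52081 matched GENCODE M21, which gave names, classes and positions. Shares are counts over the library total with 95% Clopper-Pearson intervals. A count of 0 was drawn at a floor of 3 counts but kept as 0 in shares and ratios. Low genes were removed with filterByExpr at a minimum count of 10 and a minimum total of 15, library sizes were scaled by TMM, and groups were compared by the quasi-likelihood test of edgeR 4.0.16 in R 4.3.3 with Benjamini-Hochberg adjustment, over all genes. The CPM of genes from the lists are on the TMM scale, and CPM elsewhere are of all counts. Transcripts were compared with BLAST 2.17.0. On simulated data of 2 against 2 libraries and 23023 genes, 80% of 200 genes changed 4-fold were recovered, with 9 false calls. The simulation gave every gene the same dispersion and balanced the changes up and down, so these figures need not hold for the real libraries.

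The members, lists and tests were chosen with earlier results of these data known. The genes named were the members, the most counted rRNA or unannotated identifiers and others of highest count, the nearest profiles, and from each list the 4 called genes of lowest p, or its 2 most abundant genes if no gene was called. Polr1d, Cep295, AA474408 and Gm20594 were named after their values were seen. The alternatives tried were DESeq2 1.42.0, scaling by library size, RLE or upper quartile, other filters, a block for the replicate number, omitting each library in turn, leaving the members out of the scaling, and a protein-coding denominator.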

Additional observations from a re-analysis of the deposited data

How the results depend on the processing

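The 2 libraries a group set the main limit, and the depth left beside the members was lowest in BUS+ULA library 2. Each member's difference between the groups kept its direction under every alternative that could be run for it, and ENSMUSG00002076173 and Gm15564 gave no value with 10 counts required in every library. Leaving out 1 library at a time gave log2 fold changes of 11.77 to 14.66 for ENSMUSG00000119584, 13.94 to 17.85 for ENSMUSG00002076173, 8.42 to 9.57 for Lars2, 6.35 to 7.80 for Gm15564, 0.75 to 1.26 for mt-Rnr1 and 2.70 to 3.72 for mt-Rnr2. For mt-Rnr1, library size alone gave 0.76 and upper-quartile scaling 1.31. Over protein-coding counts the members took 10.04% and 26.3% in BUS+ULA libraries, against 0.0271% and 0.0209% in BUS libraries.

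Leaving out 1 library at a time, genes called higher and lower numbered 0 to 0 and 0 to 8 for cytosolic synthetases, 0 to 2 and 0 to 7 for mitochondrial synthetases, 0 to 1 and 0 to 2 for mitochondrial mRNAs, 0 to 4 and 0 to 8 for mitochondrial rRNA handling, 0 to 3 and 0 to 16 for RNA polymerase I and rRNA processing, and 0 to 1 and 0 to 4 for the neighbours. The lowest counts came without BUS+ULA library 2 and the highest numbers of lower calls without BUS library 2. Over all genes, 656 were then higher and 714 lower without BUS+ULA library 2, 1767 and 2537 without BUS+ULA library 1, 2480 and 2937 without BUS library 1, and 5556 and 6429 without BUS library 2.

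The labels give the groups the same replicate numbers but no shared source, and the deviations of same-numbered libraries correlated at 0.33 across genes. With the replicate number as a block, 5151 genes were higher and 5901 lower. Under the block, lower calls numbered 7 for cytosolic synthetases, 7 for mitochondrial synthetases (1 higher), 4 for mitochondrial mRNAs (2 higher), 8 for mitochondrial rRNA handling, 17 for RNA polymerase I and rRNA processing (2 higher) and 2 for the neighbours (1 higher).

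Upper-quartile scaling gave 1 lower cytosolic synthetase, 1 higher and 0 lower mitochondrial synthetases, 2 higher mitochondrial mRNAs, 1 lower gene of mitochondrial rRNA handling, 1 lower gene of RNA polymerase I and rRNA processing, and 1 higher neighbour. Library size alone gave 0 higher and 5 lower genes of mitochondrial rRNA handling, 0 higher and 12 lower genes of RNA polymerase I and rRNA processing, and 1 lower neighbour. Library size with the members left out, an alternative chosen after seeing the data, gave 1 higher and 1 lower gene of mitochondrial rRNA handling, 0 higher genes of RNA polymerase I and rRNA processing, and 1 lower neighbour. With no filter beyond 1 count, 3963 genes were higher and 5094 lower in all, with 2 lower mitochondrial mRNAs, 1 higher and 4 lower genes of mitochondrial rRNA handling, 12 lower genes of RNA polymerase I and rRNA processing, and 2 lower neighbours. DESeq2 gave 1 lower gene of mitochondrial rRNA handling, and a filter of 10 counts in every library gave 1 lower gene there and 1 higher neighbour. Leaving the members out of the TMM scaling moved none of these results beyond the range set for no change. The cause was not tested in any of these cases.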
